A study of Caenorhabditis elegans with 6 samples.

Results

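The 10 lysozyme genes lys-1 to lys-10 of Caenorhabditis elegans were read from the gene rows of one count table by their names, and all 10 names had a row among 45836 gene rows. The table holds 6 RNA-seq libraries from whole first-stage (L1) larvae, 3 of a div-1 mutant and 3 labelled N2 wild type, and the titles number them as biological replicates. The mutant strain, BCN6101, carries div-1(or148) from strain EU548 and a transgene with mCherry under the promoter of daf-21. The wild-type strain, BCN1050, has the N2 background and carries the same transgene by its label. Both were grown at 20 °C on the bacterium OP50, and eggs freed by bleaching hatched overnight in M9 buffer, a medium without food. The product of div-1 belongs to the DNA polymerase alpha-primase complex, which primes DNA synthesis. The comparison asks whether lysozyme transcripts differ between larvae of the 2 strains.

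Lysozymes are secreted enzymes that cut the sugar backbone of peptidoglycan, the polymer that forms bacterial cell walls. The worm feeds on bacteria, and its lysozymes serve both digestion and defence, with the intestine as a main site of expression. The lys genes encode enzymes that resemble those of amoebae and other protists, whereas the ilys genes of the same genome encode the invertebrate type. Several lys genes are known to respond to bacterial infection through the p38 kinase PMK-1, the insulin pathway with its transcription factor DAF-16, and the TGF-beta ligand DBL-1.

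Libraries held 25051167 to 27632878 counts. mut-16, a scaffold protein of small RNA amplification, had a mean level of 6.51 ± 1.84 CPM (counts per 1000000 gene counts, by effective library size; SD, n = 3) in mutant and 51.9 ± 1.46 in wild-type larvae, so the div-1 allele and the low mut-16 level cannot be told apart as the source of any difference. Wild-type library 1 stood apart for fasting response genes. There acs-2, an acyl-CoA synthetase of fatty acid oxidation, held 878 CPM, against 1.95 to 7.83 in the other 5 libraries. The summed level of 16 intestine markers lay between 4417 and 6297 CPM in mutant larvae and between 4807 and 5674 in wild-type larvae, with none of the 16 at 0 in all libraries. None of the 16 passed the threshold of edgeR, with none at an unadjusted p under 0.05 and none called by DESeq2 or limma voom. Among listed markers of pharynx, epidermis, body wall muscle, neurons and germ cells, none was called by edgeR, DESeq2 or limma voom, and 3 had an unadjusted p under 0.05. Of all tested genes, edgeR called 0.896% and DESeq2 3.41%, and 8.26% upward and 2.44% downward had an unadjusted p under 0.05. The summed pharynx markers lay between 1826 and 2819 CPM in mutant larvae and between 1854 and 2190 in wild-type larvae. The summed level of 6 yolk genes of the adult lay between 4.58 and 8.36 CPM over all 6 libraries. In whole larvae, fewer cells of a type and less RNA per cell cannot be told apart.

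In the WBcel235 annotation, 6 of the 10 genes lie in 2 tight groups and the other 4 are single. lys-1, lys-2 and lys-3 lie side by side on chromosome V, from position 10277904 to 10283544, with lys-1 on the forward strand and the other two on the reverse strand. The gaps between them are 1250 and 625 bp. lys-4, lys-5 and lys-6 lie side by side on the reverse strand of chromosome IV, from 11621429 to 11627947. lys-7 lies elsewhere on chromosome V (3481432 to 3482600, reverse strand), lys-10 elsewhere on chromosome IV (8332826 to 8333518, forward strand), lys-8 on chromosome II (5586178 to 5587651, forward strand) and lys-9 on chromosome I (12454853 to 12455826, reverse strand). All 10 are annotated as protein-coding. Counts were read by gene name, and the build behind them is not given in the sources used here. The last 38 bp of lys-8 overlap C17G10.13, a gene on the opposite strand, and a piRNA locus of 21 bp lies within lys-4.

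The family was read mostly from 2 genes. The 10 genes together took 0.0249%, 0.0267% and 0.0291% of all gene counts in the mutant libraries 1, 2 and 3, and 0.0179%, 0.0154% and 0.0167% in the wild-type libraries. All 3 mutant shares lay above all 3 wild-type shares, at 0.0269% ± 0.00213 (SD, n = 3) against 0.0167% ± 0.00127. lys-8 and lys-1 together made up 72.8% to 75.6% of these counts in every library. The sum therefore describes mainly those 2 genes.

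Per length of exon, the levels spanned a wide range between genes. lys-8 stood highest, at 120 ± 12.9 CPM per kb in mutant larvae and 83.6 ± 5.44 in wild-type larvae (SD, n = 3). lys-1 followed, at 77.3 ± 7.55 and 48.6 ± 8.55 CPM per kb, and its range did not meet that of lys-8 in either group. lys-4 (25.1 ± 6.79 and 20.7 ± 2.66 CPM per kb), lys-2 (11.8 ± 2.80 and 9.76 ± 2.29) and lys-7 (9.84 ± 4.14 and 8.18 ± 0.744) formed a middle tier. lys-3 held a different place in the 2 groups. It stood at 9.50 ± 1.84 CPM per kb in wild-type larvae, with a range that met those of lys-2 above it and lys-7 below it, and at 26.0 ± 0.613 in the mutant, with a range that met that of lys-4. lys-10, lys-5, lys-6 and lys-9 lay at or under 1.22 CPM per kb in both group means. Of these, lys-5 and lys-6 had ranges that met each other in both groups (0.398 and 0.328 CPM per kb in mutant larvae, 0.301 and 0.322 in wild-type larvae).

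**Figure D1:**
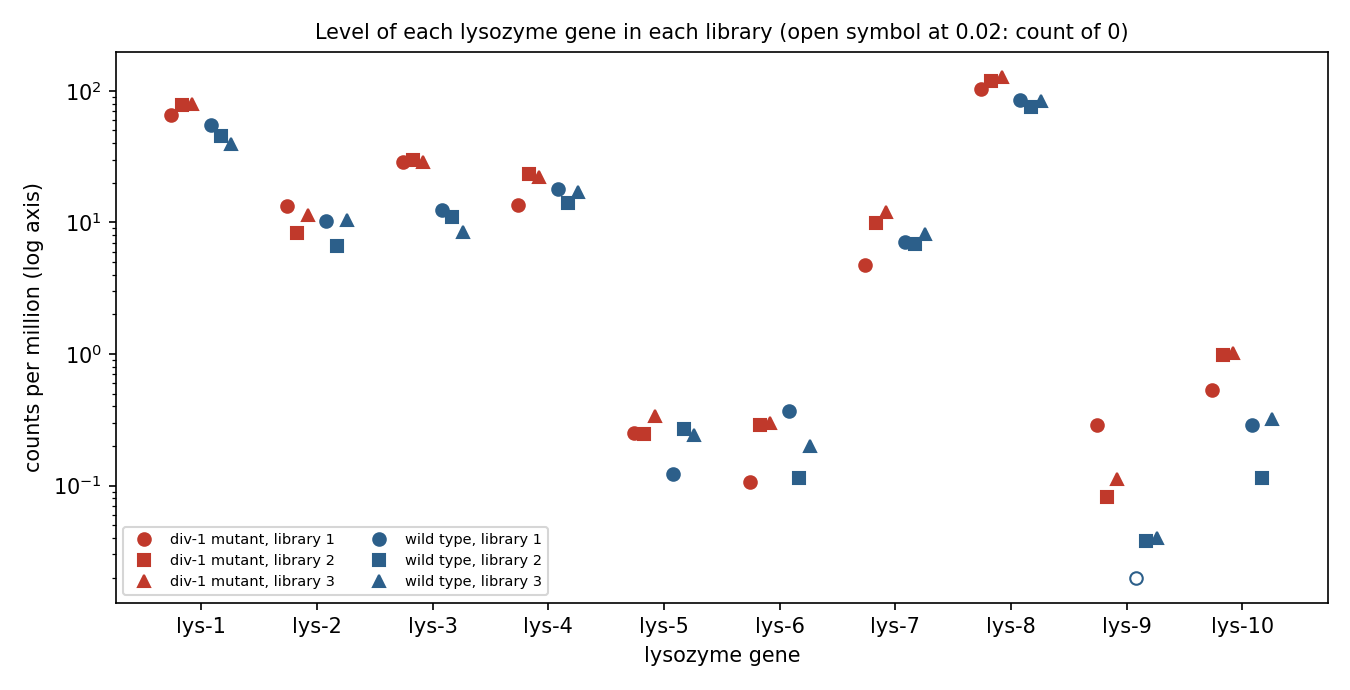
Level of each of the 10 lysozyme genes in CPM on a log axis, with 1 symbol per library, red for the div-1 mutant and blue for the wild type. lys-3 lies between 28.7 and 29.98 in the 3 mutant libraries and between 8.42 and 12.5 in wild-type larvae, while lys-2, lys-4, lys-5, lys-6 and lys-7 overlap between groups.

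lys-3 was the only member called by edgeR. It held 28.7, 29.98 and 28.8 CPM in mutant libraries 1, 2 and 3, and 12.5, 11.0 and 8.42 CPM in wild-type libraries 1, 2 and 3. The mutant libraries were nearly alike, and each held more than 2 times the level of any wild-type library. The rise was 1.45 on the log2 scale ± 0.171 (SE), or 2.74-fold (95% interval 2.08 to 3.61; quasi-likelihood test of edgeR, adjusted p = 0.0115 after Benjamini and Hochberg). That p ranked 45th among 16289 tested genes, of which 0.896% were called in either direction, 0.884% upward and 0.0123% downward. Leaving out mutant library 3 ended the call (log2 fold change 1.47, adjusted p = 0.0751) and so did leaving out wild-type library 2 (1.48, adjusted p = 0.0632). Without wild-type library 1, where acs-2 was high, the log2 fold change was 1.58 (adjusted p = 0.0397).

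Both abundant genes, lys-8 and lys-1, lay higher in every mutant library without passing the threshold of edgeR. lys-8, reported elsewhere as a target of DBL-1 signalling, held 103, 118.6 and 128 CPM in mutant larvae and 84.7, 75.0 and 83.5 in wild-type larvae. The groups did not overlap, and the log2 fold change was 0.53 ± 0.136 (SE; adjusted p = 0.162 by edgeR), or 1.44-fold (interval 1.16 to 1.79). lys-1, known as a gene induced by the pathogen Serratia marcescens, held 65.7, 77.8 and 78.7 CPM in mutant larvae and 55.4, 45.4 and 39.1 in wild-type larvae. These groups did not overlap either, with a log2 fold change of 0.67 ± 0.164 (SE; adjusted p = 0.139 by edgeR). Its fold was 1.59, with an interval of 1.22 to 2.07. DESeq2 called both (adjusted p = 0.0301 for lys-8 and 0.0285 for lys-1), in a fit that called 3.41% of all tested genes, 3.32% upward.

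The other members of middle level overlapped between groups. lys-2, the middle gene of the chromosome V group, held 13.4, 8.24 and 11.4 CPM in mutant larvae and 10.2, 6.64 and 10.5 in wild-type larvae. Its log2 fold change was 0.28 ± 0.251 (SE; adjusted p = 0.744 by edgeR), and the interval of its fold ran from 0.812 to 1.81. lys-4 held 13.6, 23.4 and 22.2 CPM in mutant larvae and 17.9, 13.9 and 17.04 in wild-type larvae. Mutant library 1 was the lowest of all 6 for lys-4, and the log2 fold change was 0.28 (SE 0.226, adjusted p = 0.712 by edgeR). lys-7, a gene of pathogen resistance that DAF-16 is known to promote, held 4.72, 9.97 and 11.9 CPM in mutant larvae and 7.13, 6.87 and 8.14 in wild-type larvae. Mutant library 1 was again the lowest of the 6, below every wild-type library, and libraries 2 and 3 lay above them. The log2 fold change of lys-7 was 0.27 (SE 0.321, adjusted p = 0.814 by edgeR) with a fold interval of 0.719 to 2.01, and it became -0.0057 without mutant library 3. The same mutant library 1 had the lowest summed intestine markers of the 6 (4417 CPM). It was also the lowest for summed markers of pharynx (1826), body wall muscle (14713) and neurons (2968), but not of epidermis or germ cells. Whether these low sums have a part in lys-4 and lys-7 was not tested.

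The 4 members of low level rest on few counts. lys-10 had 15, 24 and 27 counts in mutant larvae and 7, 3 and 8 in wild-type larvae. It passed the expression filter only through the mutant libraries, so its difference is given without weight: a log2 fold change of 1.796 ± 0.466 (SE; adjusted p = 0.163 by edgeR). lys-5, lys-6 and lys-9 did not pass the filter. lys-5 summed to 22 counts in mutant and 16 in wild-type larvae, and the scaled ratio was 1.32 (95% interval 0.660 to 2.68). lys-6 had 18 and 17 counts, a ratio of 1.01 with an interval of 0.493 to 2.09. For both genes a difference in either direction within these bounds could not be told from none at this depth. Variation between libraries would widen the bounds. lys-9 had 8, 2 and 3 counts in mutant larvae and 0, 1 and 1 in wild-type larvae, a ratio of 6.22 with an interval of 1.41 to 56.8. These intervals cover counting error only, and in an edgeR fit without the filter lys-9 had an adjusted p of 0.533.

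Of the 10 members, 5 lay higher in all 3 mutant libraries than in any wild-type library and 5 overlapped. The 5 higher ones include lys-9, which was not tested, and lys-10, which passed the filter only through the mutant libraries. The shares of tested genes given below do not match a count over all 10 members. Among the 6 that passed the filter level in both groups, 1 was called higher, 3 did not overlap and 3 overlapped. Their median log2 fold change was 0.40, beside -0.03 over all tested genes. Over all tested genes, 17.9% had groups that did not overlap, 10.2% with the mutant above and 7.73% with it below. An unadjusted p under 0.05 was reached upward by 3 of these 6 and by 8.26% of all tested genes, and downward by none of the 6 and by 2.44%. All 6 had a log2 fold change above 0, as had 46.0% of all tested genes, and that of lys-7 was -0.0057 without mutant library 3.

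**Figure D2:**
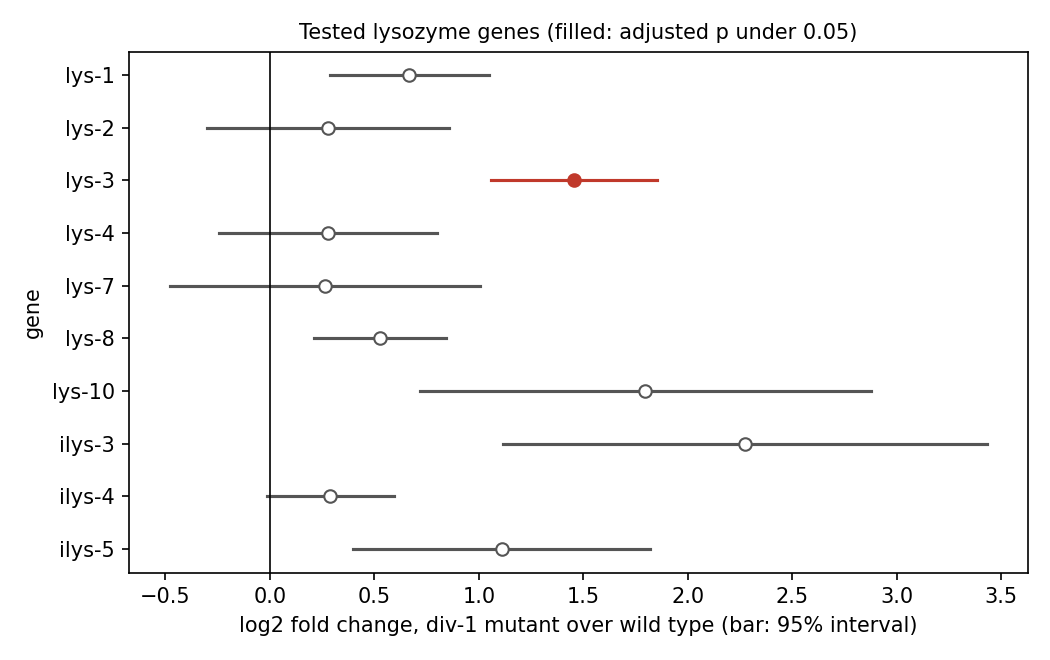
Log2 fold change of the div-1 mutant over the wild type for the 7 lys and 3 ilys genes that were tested, with 95% intervals from the edgeR fit; filled symbols passed an adjusted p of 0.05. lys-3 alone is filled, at 1.45, while the intervals of lys-2, lys-4 and lys-7 span 0.

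Within the chromosome V group, the ratios of lys-3 to its neighbour lys-2 and to lys-1, on the far side of lys-2, did not overlap between mutant and wild type. These ratios are formed within a library and do not depend on how libraries are scaled. The log2 ratio of lys-3 to lys-1 counts was -1.19, -1.38 and -1.45 in mutant larvae and -2.15, -2.04 and -2.21 in wild-type larvae. Both groups were tight and far apart, with a difference of 0.79 (exact permutation test, two-sided, p = 0.1, which is the lowest possible for 3 against 3 libraries; 0.15 adjusted over 3 pairs). The log2 ratio of lys-3 to lys-2 was 1.10, 1.86 and 1.34 in mutant larvae and 0.30, 0.73 and -0.31 in wild-type larvae. The difference was 1.19, again without overlap (exact permutation p = 0.1, 0.15 adjusted). The ratio of lys-1 to lys-2 overlapped between the groups, with a difference of 0.40 (exact permutation p = 0.4, also 0.4 adjusted). lys-5 and lys-6 had too few counts for such ratios on chromosome IV.

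**Figure D3:**
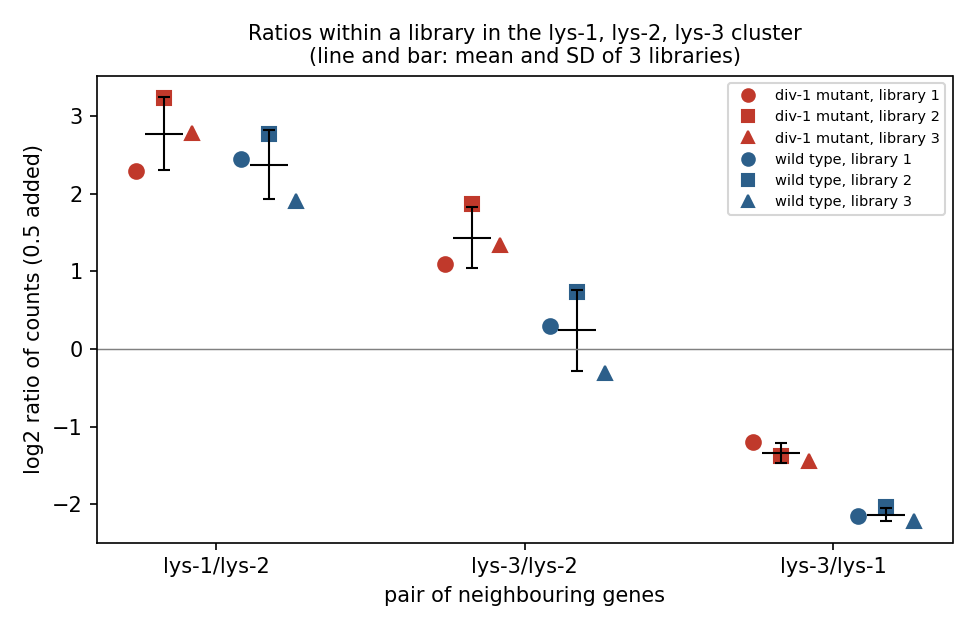
Log2 ratio of counts between genes of the chromosome V group in each library, with the mean and SD of the 3 libraries of a group. The lys-3 to lys-1 ratio lies at -1.34 ± 0.131 in mutant larvae and -2.13 ± 0.0868 in wild-type larvae.

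None of the genes that flank this group was called by edgeR. They were chosen after the values were seen, as the 3 tested protein-coding genes on either side. Their log2 fold changes lay between -0.19 and 0.37, and none passed the threshold of edgeR or an unadjusted p under 0.05. The nearest, B0024.3, began 4016 bp after lys-3 and had a log2 fold change of -0.19. On the other side ric-4, a SNAP-25 protein of synaptic vesicle release, ended 7590 bp before lys-1 and had -0.12. Around the 5 loci with a tested member, none of 30 flanking genes was called by edgeR, and 2 had an unadjusted p under 0.05. Of all tested genes, 0.896% were called, and 8.26% upward and 2.44% downward had an unadjusted p under 0.05. At these shares, a lack of calls among so few genes says little about the flanks.

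**Figure D4:**
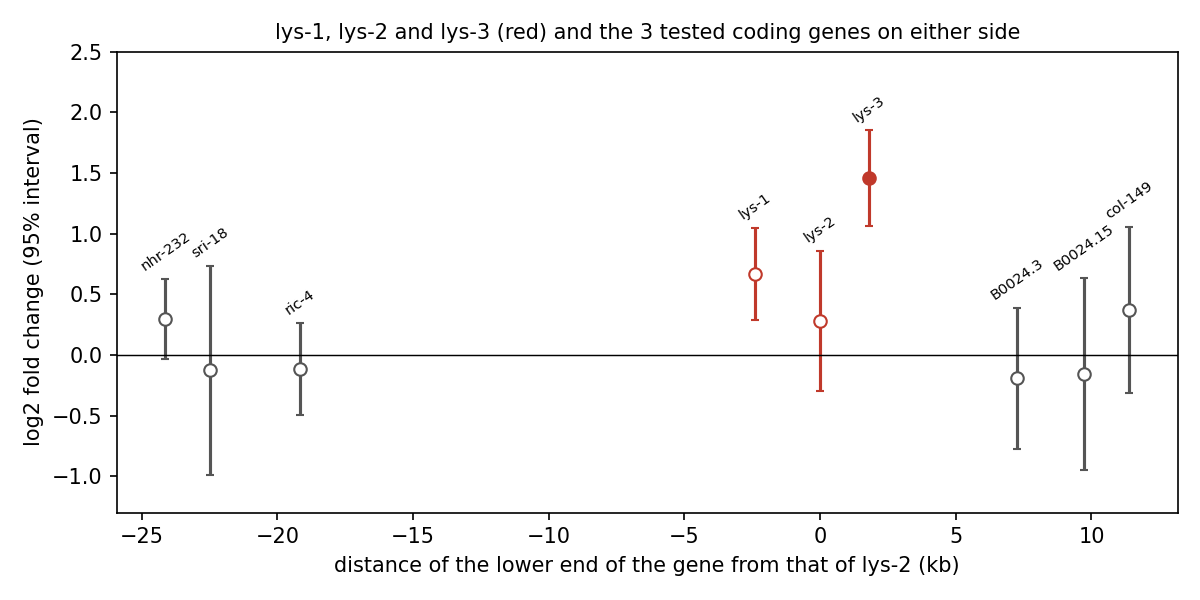
Log2 fold change with its 95% interval for lys-1, lys-2 and lys-3 in red and the 3 tested coding genes on either side in grey, against the distance in kb between the lower ends of each gene and of lys-2. Only lys-3 is filled, for an adjusted p under 0.05.

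Members with the most similar profiles across libraries were lys-1 and lys-8. After each gene was centred on its own mean, their log2 CPM differed by a root mean square of 0.17 over the 6 libraries. lys-4 and lys-7 followed with 0.21, and lys-2 and lys-10 were the farthest apart, with 0.82. The 3 genes nearest to lys-3 among 11097 others with a mean of at least 5 CPM were C28C12.4, F45E4.5 and Y54G11A.4, at 0.11, 0.15 and 0.15. Their likeness to lys-3 fixes the direction of these 3 genes, and largely also the size of their rise and their low p. Their values are given as description only. C28C12.4 rose by 1.64, F45E4.5 by 1.58 and Y54G11A.4 by 1.34 on the log2 scale (edgeR adjusted p = 0.0136, 0.00486 and 0.0311). Without mutant library 2 or 3, or wild-type library 1 or 2, the calls of C28C12.4 (adjusted p up to 0.0738) and Y54G11A.4 (up to 0.142) were lost. The 3 nearest to lys-8 were myo-5, a myosin heavy chain, C30G12.2 and clh-1, a chloride channel, at 0.07, 0.08 and 0.08. Their log2 fold changes were 0.48, 0.51 and 0.40, and none passed the threshold.

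The invertebrate-type lysozymes are the closest comparison. Of the 6 ilys genes, 3 were tested, and none passed the threshold of edgeR or limma voom. An unadjusted p under 0.05 was reached upward by 2 of them and by 8.26% of all tested genes. DESeq2 also called 2, and 3.41% of all tested genes. All 3 lay higher in every mutant library than in any wild-type library, as did 10.2% of all tested genes. Their median log2 fold change was 1.11, beside 0.40 for the 6 lys genes over the filter level in both groups and -0.03 for all tested genes. However, ilys-3 reached the filter level in 3 mutant libraries but only 1 wild-type library. It passed through the mutant libraries, so counts and a median that include it carry no weight. ilys-3, which is needed to digest bacteria in the pharynx and gut, held 1.18, 3.62 and 2.03 CPM in mutant larvae and 0.696, 0.343 and 0.363 in wild-type larvae. The groups did not overlap, but the mutant libraries spread widely and only 1 wild-type library reached the filter level, and the log2 fold change was 2.27 ± 0.5002 (SE; adjusted p = 0.098 by edgeR). ilys-5 held 6.26, 13.1 and 14.5 CPM in the mutant against 5.49, 5.15 and 5.04. Its log2 fold change was 1.11 ± 0.307 (SE; adjusted p = 0.195 by edgeR), and it passed the threshold without mutant library 1 (1.40, adjusted p = 0.0189). Mutant library 1 was the lowest mutant library for ilys-3 and ilys-5, as for lys-1, lys-3, lys-4, lys-7 and lys-8, but not for ilys-4 or lys-2. ilys-4, which lies wholly within the gene atic-1 of the opposite strand, had a log2 fold change of 0.29 (adjusted p = 0.49 by edgeR). ilys-2 summed to 31 counts in mutant and 8 in wild-type larvae, and the scaled ratio was 3.71 (counting interval 1.67 to 9.34). ilys-1 had 3 and 4 counts. The row W03D2.7, currently named ilys-6, had 3 and 0.

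The saposin-like and antibacterial factor genes had no member called by edgeR, beside 0.896% of all tested genes. DESeq2 called 3.41% of all tested genes, and 8.26% had an unadjusted p under 0.05 upward. The saposin-like family includes proteins that permeabilise membranes. Of its 18 tested genes, none passed the threshold of edgeR or limma voom, 1 had an unadjusted p under 0.05 and DESeq2 called 1. That gene was spp-20, at 14.0 ± 3.20 CPM in mutant larvae and 3.96 ± 2.57 in wild-type larvae (SD, n = 3; log2 fold change 1.82, adjusted p = 0.16 by edgeR). Their median log2 fold change was 0.06. Of the antibacterial factor genes, 3 of 6 were tested and none was called by edgeR, DESeq2 or limma voom, nor had an unadjusted p under 0.05. abf-2 had a log2 fold change of 0.97 (adjusted p = 0.467 by edgeR) and abf-6 of -0.14 (adjusted p = 0.91 by edgeR).

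Listed genes of the pathways known to regulate lysozymes were not called by edgeR either. Over all tested genes, edgeR called 0.896% and DESeq2 3.41%, and an unadjusted p under 0.05 was reached by 8.26% upward and 2.44% downward. At so low a share, lists of 12 to 14 genes can lack a call whether or not a pathway differs. Of 13 tested p38 pathway genes, none passed the threshold of edgeR or limma voom, 2 had an unadjusted p under 0.05 upward, and DESeq2 called 1. That one was vhp-1, a phosphatase that restrains stress kinases, at 345 ± 41.8 CPM in mutant larvae and 216 ± 8.89 in wild-type larvae (SD, n = 3; log2 fold change 0.67, adjusted p = 0.0922 by edgeR). tir-1, the adaptor at the head of the cascade, had 0.68 (adjusted p = 0.35 by edgeR). Of 12 DBL-1 pathway genes, none was called by edgeR, DESeq2 or limma voom, nor had an unadjusted p under 0.05. The glypican gene lon-2 had a log2 fold change of 0.30 and the receptor gene sma-6 of -0.27. Of 12 insulin pathway genes, none was called by the 3 tools and 1 had an unadjusted p under 0.05 downward, the kinase gene pdk-1 (log2 fold change -0.33, adjusted p = 0.387 by edgeR). ftt-2, a 14-3-3 protein that binds DAF-16, had -0.25. Among 14 regulators of intestinal immunity none passed edgeR or limma voom, 2 had an unadjusted p under 0.05 upward, and DESeq2 called 1, the zinc finger factor pqm-1. Its level was 56.6 ± 3.99 CPM in mutant and 39.4 ± 4.05 in wild-type larvae (SD, n = 3; log2 fold change 0.52, adjusted p = 0.158 by edgeR). zip-2, a bZIP factor of the response to infection, had 0.54 (adjusted p = 0.378 by edgeR). Median log2 fold changes of these 4 lists were 0.01, 0.02, -0.06 and -0.03, beside -0.03 for all tested genes.

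In the fasting response list, edgeR called 1 of 16 tested genes higher and none lower, beside 0.884% and 0.0123% of all tested genes. An unadjusted p under 0.05 was reached upward by 1 and downward by 3 of them, beside 8.26% and 2.44% of all tested genes. The median log2 fold change of the list was -0.54, beside -0.03 for all tested genes. Wild-type library 1 bears on these values. The list summed to 6331 CPM there, to 1632.5 and 2008 in wild-type libraries 2 and 3, and to between 1682 and 1892 in mutant larvae. Without wild-type library 1 the log2 fold change was 1.52 for acs-2 and 0.0655 for hacd-1. ech-9, of the enoyl-CoA hydratase family, rose by 1.76 on the log2 scale (adjusted p = 0.022 by edgeR), a call lost without any single library other than mutant library 1 (adjusted p up to 0.131). Wild-type library 1, which stood apart for acs-2, also stood apart for hacd-1, a hydroxyacyl-CoA dehydrogenase, with 72.6 CPM against 2.92 to 3.35 in the other 5. Among the 6 lysozyme genes over the filter level in both groups, it was the highest wild-type library for lys-1, lys-3, lys-4 and lys-8. For lys-2 and lys-7 it lay between the other wild-type libraries. Among the members that did not pass the filter, it was the highest for lys-6 and the lowest for lys-5 and lys-9, with at most 9 counts. Without wild-type library 1 the log2 fold changes were 1.58 for lys-3, 0.80 for lys-1 and 0.55 for lys-8.

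**Figure D5:**
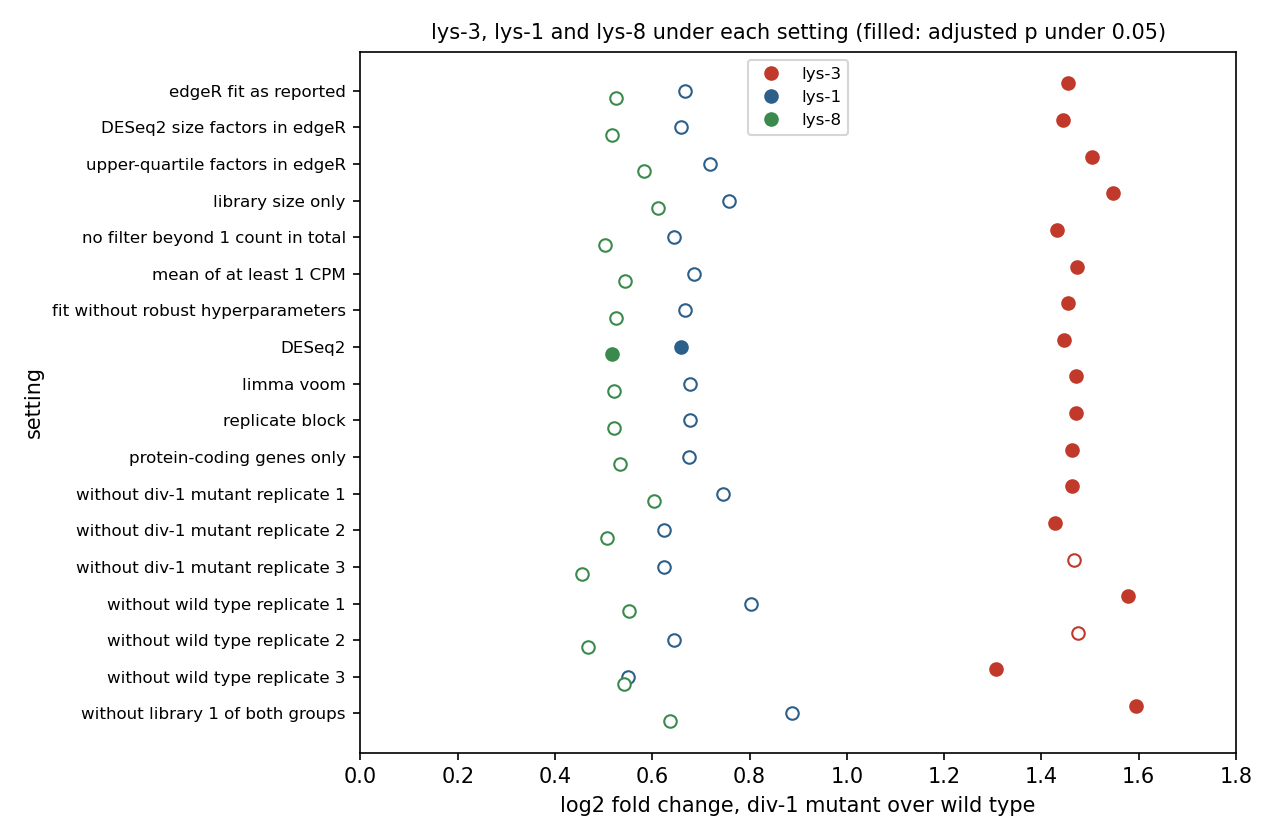
Log2 fold change of lys-3, lys-1 and lys-8 in the reported edgeR fit and under 17 other settings; filled symbols passed an adjusted p of 0.05. lys-3 stays between 1.31 and 1.59 and is filled in 15 of the 17, while lys-1 and lys-8 are filled only with DESeq2.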

How the data were processed

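The table that the authors deposited holds raw, whole-number counts for 6 libraries and is not normalised. Per the submitters' processing notes the tools included TopHat2 2.1.0, featureCounts 1.5.0 and DESeq2 1.8.1. Build, annotation and strand setting: not given in the sources used here. Per the labels' protocols, libraries came from a small RNA kit with inserts of 18 to 36 bp, so reads of related lysozyme genes may be hard to assign. Only the 45836 gene rows set library sizes; names were matched to the Ensembl WBcel235 annotation, also the source of exon length. In R 4.3.3 with edgeR 4.0.16, TMM factors, the default filter (10 counts in the median library) and a robust quasi-likelihood fit on group gave two-sided p values, adjusted over 16289 genes. SE was taken from the fold change and F statistic. DESeq2 1.42.0 and limma 3.58.1 were alternatives. Ratios had 0.5 counts added. The fit was tested on simulated counts, where it called 6.12% of 1.5-fold, 36% of 2-fold and 92% of 4-fold changes. A gene that was not called may therefore still differ by such amounts. Members and lists were chosen with earlier results of these data known. Named genes are all lys and ilys genes, called genes of each list and its 2 next by p, 3 nearest profiles and the flanking genes.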

Additional observations from a re-analysis of the deposited data

How the results depend on the processing

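The count of called lysozyme genes was 1 in the reported fit and 3 with DESeq2 (lys-3, lys-1 with 0.66 and lys-8 with 0.52), and it ran from 0 to 1 with a library left out. The log2 fold change of lys-3 lay between 1.31 and 1.58 with a library left out and was past the threshold in 15 of 17 alternatives. Those of lys-1 (0.55 to 0.89) and lys-8 (0.46 to 0.64) stayed positive in all 17. With a library left out, lys-7 ran from -0.0057 to 0.57, abf-6 from -0.41 to 0.18, acs-2 from -6.10 to 1.52, hacd-1 from -3.57 to 0.0655 and ric-4 from -0.25 to 0.0059. The count of all called genes was 146; it became 306 with no filter beyond 1 count, 556 with DESeq2, 68 without library 1 of both groups, and 36 to 116 with a library left out. With the replicate number as a block it was 52, and lys-3 kept its call (adjusted p = 0.0487). Deviations of same-numbered libraries from their group means correlated at -0.22, 0.504 and -0.315, and those of differently numbered libraries at -0.566 to 0.622. With 3 libraries per group, centred on their own mean, these values cannot show whether libraries were paired. The positive log2 fold changes of abf-6 and ric-4 came without mutant library 1, and those of acs-2 and hacd-1 without wild-type library 1. Without library 1 of both groups, abf-6 became 0.22, acs-2 1.36, hacd-1 0.0473 and B0024.3 0.13. ech-9 lost its call with the block and without most single libraries (adjusted p up to 0.131), and C28C12.4 (up to 0.0738) and Y54G11A.4 (up to 0.142) lost theirs with the block and without 4 of 6 single libraries each. The cause of these changes was not tested. Depth limits lys-5, lys-6, lys-9 and lys-10, which had at most 27 counts in a library. Median log2 fold changes of all genes lay between -0.04 and 0.06 under every scaling.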
